A study of Mus musculus with 9 samples.

Results

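The SLC25 genes encode the mitochondrial carriers, and 39 of the 19335 features in the deposited sheet of mouse muscle counts were taken as members. They are the protein-coding rows whose symbol is Slc25a followed by a number, with Slc25a20 left out. The rule uses symbols and no measured value, though the family was picked with earlier results of these data known. Of the 7523 features abundant enough to be tested, 15 were members, and the other 24 members were too low. Another 8 genes known to belong to the family (Slc25a2, Slc25a13, Slc25a30, Slc25a31, Slc25a41, Slc25a43, Slc25a48 and Slc25a52) were not analysed here. Ucp2, Ucp3, Mtch1 and Mtch2 have symbols outside the rule and were placed with other transport genes, Ucp3 with 2087 counts. Family counts, shares and tests below leave them out.

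Mitochondrial carriers are small proteins, most of them in the inner membrane, that pass nucleotides, phosphate, keto acids, amino acids and cofactors between the cytosol and the matrix. A muscle fibre depends on them to send ATP out against ADP, to bring phosphate in, and to move reducing equivalents by the malate-aspartate shuttle. Most carriers are named by substrate, and some have no settled substrate. Slc25a20, the carnitine/acylcarnitine carrier, is the member that handles carnitine itself and is not covered here.

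Messenger RNA was sequenced from muscle of wild-type C57BL/6J mice, an inbred laboratory strain, in 9 libraries, 3 for each of 3 groups. Mice entered the study at 9 weeks of age and were acclimatised for 2 weeks before 8 weeks of feeding. Fat supplied 10% of the energy in the control diet and 60% in the high-fat diet. The carnitine group ate the high-fat diet and drank water with L-carnitine, dosed at 100 mg/kg/day. All groups were fasted for 6 h before collection. The muscle is not named. Nothing in the labels says that each library is a separate mouse, so p-values cover only how far these libraries spread, which may be technical.

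The libraries held 2315985 to 3773649 counts each, and 26566 counts in all, 0.108% of the total, lay on members. All 16 skeletal fibre markers were detected, with a summed level of 64284 to 93175 CPM (counts brought to the same library size after TMM normalisation) in the control group. That sum was 67328 to 83109 CPM in the high-fat group and 48243 to 55735 CPM in the carnitine group, below every library of the others. The 8 slow fibre markers summed to 14.9 to 90.1 CPM over all libraries, and the adipocyte markers in the file to between 0 and 20.6 CPM, with Adipoq and Plin1 at 0 in all control and all carnitine libraries. Carnitine 1 differed from the other carnitine libraries, with a chi-square per degree of freedom of 42.6 and 29.5 against them over all features. Other pairs of a group had 9.34 to 20.96. The measure does not tell which library of a pair was unusual. Fewer cells of a type and less RNA per cell cannot be told apart in such samples.

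Most counts lay on genes whose exons overlap a gene on the other strand. Of all counts in a library, 81.9% to 88.9% were on such features, which were 6981 of the 19335. A further 8.65% to 14.5% were on the 9246 features with no opposite gene. The library kit keeps strand, but the setting chosen when reads were assigned to genes was not given in the sources used here. Within shared exon sequence, reads of a gene and of its opposite partner are told apart only by strand. Counts from that sequence may therefore hold reads of either gene. The levels, shares and ranks of all members, those with no opposite gene included, depend on that setting. Among members, 23 had no opposite gene, 12 shared exon sequence with an opposite gene and 4 had an opposite gene without shared exon. Of the 15 tested members these were 8, 5 and 2. Values below carry the file's symbol, with the opposite gene named for each tested member that has one, and which strand they come from was not tested.

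Slc25a25 was the 1 member, of the 15 tested, whose change passed the test. It encodes a carrier that exchanges ATP-Mg for phosphate under control of cytosolic calcium, and mice lacking it are known to use energy less efficiently in muscle and to resist diet-induced obesity. Its level fell with the high-fat diet, from 27.0 ± 12.4 to 2.38 ± 2.27 CPM (SD, n = 3), and was 1.19 ± 1.27 CPM with carnitine. None of the other 14 tested members passed the test in any of the 3 comparisons.

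Slc25a25 lies on chromosome 2 from 32304499 to 32341457 on the minus strand (GRCm39 coordinates of the file). At its 5′ end it overlaps Naif1, a plus-strand gene for a nuclear protein, by 379 exonic bases, 4.82% of the exon sequence of Slc25a25 in the GENCODE M21 annotation. RefSeq lists 3 start sites for the gene. The 250 bases before each are printed below from the RefSeq promoter table (GRCm38.p6, minus strand, 5′ to 3′), because they show how the starts of the only member called differ in sequence. Capitals mark TGACGTCA, the palindromic cyclic AMP response element, which CREB and ATF proteins are known to bind.
Slc25a25 start 1, chr2:32451471-32451720: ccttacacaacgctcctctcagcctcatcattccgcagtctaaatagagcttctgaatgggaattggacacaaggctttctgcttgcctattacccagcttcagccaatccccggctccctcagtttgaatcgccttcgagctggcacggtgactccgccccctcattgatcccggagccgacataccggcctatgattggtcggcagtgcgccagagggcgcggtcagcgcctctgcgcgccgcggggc
Slc25a25 start 2, chr2:32431152-32431401: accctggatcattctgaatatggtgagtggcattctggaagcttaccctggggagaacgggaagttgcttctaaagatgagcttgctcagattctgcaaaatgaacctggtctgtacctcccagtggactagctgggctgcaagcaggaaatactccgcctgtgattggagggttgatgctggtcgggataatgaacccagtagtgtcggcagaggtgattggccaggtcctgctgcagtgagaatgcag
Slc25a25 start 3, chr2:32424067-32424316: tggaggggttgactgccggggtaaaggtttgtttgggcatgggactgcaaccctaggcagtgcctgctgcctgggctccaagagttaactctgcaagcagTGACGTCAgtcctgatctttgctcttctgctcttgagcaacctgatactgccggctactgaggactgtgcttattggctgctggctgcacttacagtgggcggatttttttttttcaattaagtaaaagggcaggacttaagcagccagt
The window of start 3 held the element, with its first base 150 bases before the start, and the windows of start 1 and start 2 did not. G and C made up 60.0%, 52.0% and 51.6% of the bases at starts 1, 2 and 3. Windows of the 250 bases before each start were searched on both strands. The element occurred in 1.55% of all 32851 windows and in 2 of the 40 windows of the 30 members matched by symbol (5.0%), the other being at Slc25a36. CACGTG, the E-box, occurred in 6.02% of all windows and in 6 member windows of 5 genes (15%), namely Slc25a1, Slc25a14, Slc25a15, Slc25a33 and Slc25a36. AAGGTCA, the element that estrogen-related receptors bind, occurred in 4.08% of all windows and in 1 member window (2.5%), at Slc25a34. These matches are descriptions of sequence, and the counts do not tell which start was in use.

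The counts on Slc25a25 were 108, 30 and 82 in control libraries 1, 2 and 3. They were 14, 3 and 4 in the high-fat libraries and 7, 1 and 1 in the carnitine libraries. Every control library thus stood above every library of the other groups, and the high-fat and carnitine libraries overlapped. In CPM the control libraries held 39.4, 14.7 and 27.0, the high-fat libraries 4.96, 0.696 and 1.49, and the carnitine libraries 2.65, 0.428 and 0.481.

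By edgeR's quasi-likelihood test with Benjamini-Hochberg adjustment over all 7523 features, the log2 fold change of Slc25a25 was -3.55 (SE 0.64, adjusted p = 0.0258) for the high-fat diet against control. That comparison called 4 features in all, 0.0532% of those tested, each of them lower. For Slc25a25 it was -4.39 (SE 0.70, adjusted p = 0.00219) with carnitine on the high-fat diet against control, where 0.425% of the features tested were called and 0.213% were called lower. These comparisons share the control libraries, so the fall in the second is not independent of the first. Carnitine against the high-fat diet alone gave -0.84 (SE 0.79, adjusted p = 0.711), which the 21 high-fat and 9 carnitine counts do not resolve.

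The call against control with the high-fat diet was lost without control 1 (adjusted p = 0.0993), control 2 (0.108), control 3 (0.0795), high-fat 2 (0.0771) or high-fat 3 (0.104), while the log2 fold change kept between -4.67 and -3.05 over all 9 such fits. It was also lost with library totals in place of TMM factors (log2 fold change -3.41, adjusted p = 0.129). The call with carnitine against control held in all 9 fits that left out a library and was lost with limma-voom (adjusted p = 0.205). Without carnitine 1 alone the adjusted p of Slc25a25 was 0.000489 and 0.000104 in the comparisons with control.

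Naif1, the opposite partner, had few counts. They were 13, 3 and 15 in the control libraries, 4, 9 and 3 in the high-fat libraries and 3, 26 and 5 in the carnitine libraries, and the 3 groups overlapped. Its log2 fold change came to -1.24 (SE 0.92, adjusted p = 0.906) with the high-fat diet and 1.61 (SE 0.93, adjusted p = 0.493) with carnitine against the high-fat diet. The Slc25a25 row, with 250 counts over the 9 libraries, held more than the 81 of Naif1, and the bases they share were not counted apart in the file.

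Summed endothelial and erythroid markers did not overlap between control and high-fat libraries. The sums for skeletal and slow fibres, adipocytes, fibroblasts, leukocytes, nerve and smooth muscle did overlap. Of single features tested in that comparison, 7.23% were higher and 6.86% lower without overlap. The 6 endothelial markers summed to 38.1 to 48.9 CPM in control and 56.1 to 96.3 CPM in high-fat libraries, and the 5 of 6 erythroid markers in the file to 8.22 to 14.6 and 3.55 to 6.27 CPM. In the carnitine libraries these sums were 39.4 to 173.7 and 3.85 to 15.4 CPM. Their part in the level of Slc25a25 was not tested.

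**Figure D1:**
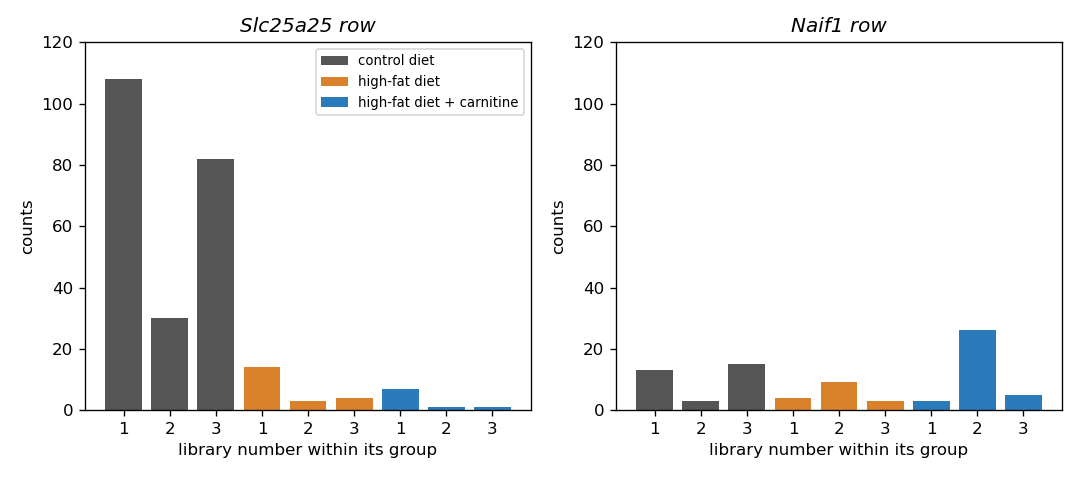
Counts (y axis) in each of the 9 libraries (x axis, library number within its group, coloured by group) for the Slc25a25 row on the left and the Naif1 row on the right, on the same scale. Control libraries held 30 to 108 Slc25a25 counts and every other library 14 or fewer, while Naif1 held 3 to 26 with overlapping groups.

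The close paralogs of Slc25a25, which also carry ATP-Mg and phosphate, were too low to be tested. Slc25a23 held 67 counts in all, 0, 0 and 7 in control, 3, 36 and 8 in the high-fat and 2, 6 and 5 in the carnitine libraries. More than any other library, high-fat 2 supplied these counts. Slc25a24 held 12 counts, 0, 0 and 0 in control, 7, 1 and 2 in the high-fat and 2, 0 and 0 in the carnitine libraries. Slc25a54 held 7 counts, and no library held more than 4. With 0 counts up to 3 remain possible, or 0.696 to 1.47 CPM by library, for counting error only.

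Across the family, the high-fat diet against control gave 10 of the 15 tested members a positive and 5 a negative log2 fold change. The median was 0.18 beside 0.00 over all features tested, of which 50.6% were positive. It was 0.12 over features without an opposite gene and -0.06 over those sharing exon with one. Tested members of these kinds had medians of 0.44 and -0.03. Members whose opposite gene shares no exon had a median of 0.16, beside 0.05 over all such features. Slc25a25 was also the 1 member with an unadjusted p below 0.05, against 6.31% of all features. Slc25a28 and Slc25a3 were higher in every high-fat than in every control library, as were 7.23% of all features, and Slc25a25 was lower in every one, as were 6.86%. Apart from Slc25a25, adjusted p-values ran from 0.839 to 0.999.

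Carnitine against the high-fat diet gave 6 members a positive and 9 a negative log2 fold change. The median was -0.32 beside -0.01 over all features, of which 49.4% were positive. No member was called, where 0.0532% of all features were (0.0399% higher and 0.0133% lower), and none had an unadjusted p below 0.05, where 12% did. DESeq2 and limma-voom also called none. No member had groups that did not overlap, against 10.2% of features higher and 9.82% lower. In this comparison the median was -0.32 over features without an opposite gene and 0.18 over those sharing exon with one. Among tested members it was -0.38 over the 8 without an opposite gene 0.08 over the 5 with shared exon and -0.69 over the 2 whose opposite gene shares no exon, a class with a median of -0.16 over all its features.

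Carnitine on the high-fat diet against control gave 7 members a positive and 8 a negative log2 fold change. The median was -0.09 beside 0.00 over all features, of which 49.7% were positive. It was -0.20 over features without an opposite gene and 0.11 over those sharing exon with one. Tested members of these kinds had medians of -0.10 and 0.26. Members whose opposite gene shares no exon had a median of -0.53, beside -0.16 over all such features. Slc25a25 was again the 1 member with an unadjusted p below 0.05, against 10.4% of features, and the 1 member lower without overlap, against 7.18%. None was higher without overlap, against 6.45%. The adjusted p of the others ran from 0.675 to 0.991.

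**Figure D2:**
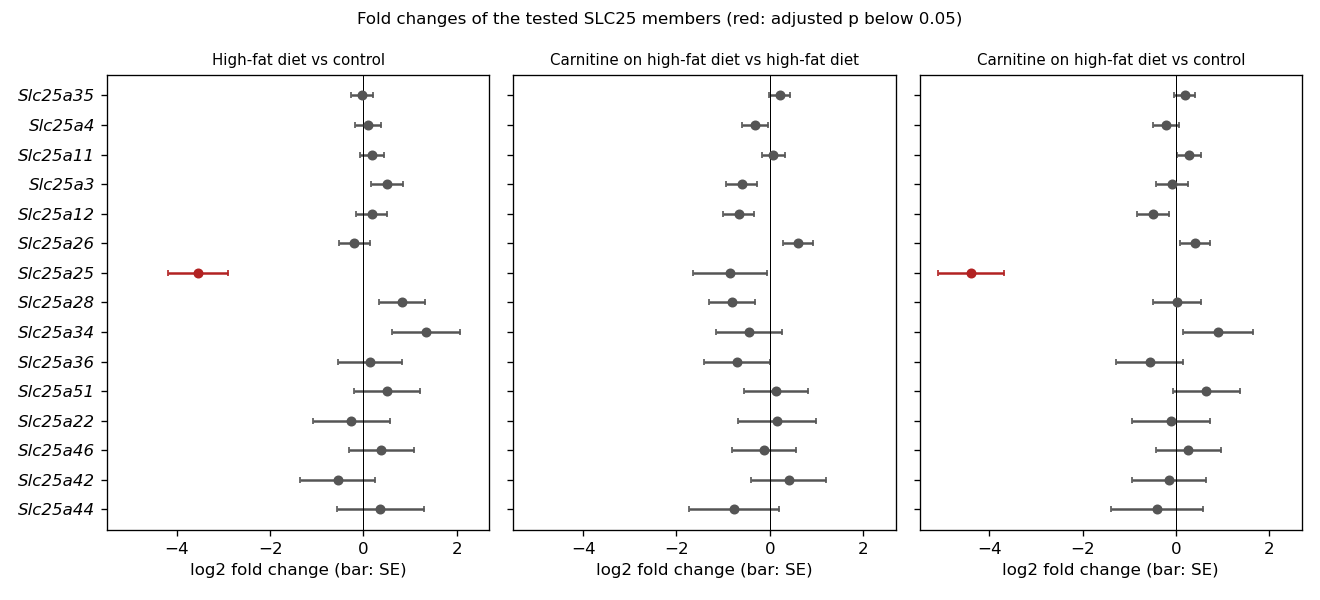
Log2 fold change (x axis) of each of the 15 tested members (y axis, ordered by mean level) in the 3 comparisons, with bars of 1 standard error and red for an adjusted p below 0.05. Slc25a25 is the red point at -3.55 and -4.39, and the other members lie between -0.81 and 1.34.

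By counts under the file's symbols, a pair of members made up most of the family. These shares and the ranks below depend on the strand setting, which was not given. Slc25a35 took 37.6% and Slc25a4 36.3% of the family's counts, and with Slc25a11, Slc25a3, Slc25a12 and Slc25a26 the first 6 took 93.0%. Per length, by the authors' FPKM averaged over the 9 libraries, Slc25a4 stood first at 162, then Slc25a35 at 111, Slc25a11 at 37.3, Slc25a3 at 9.76, Slc25a26 at 7.14 and Slc25a12 at 4.85. Slc25a28 (2.57), Slc25a34 (2.17), Slc25a39 (1.29) and Slc25a25 (1.27) followed, and every other member lay at or below 1.01.

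The summed level of the family was 1049, 1119.8 and 999.9 CPM in the control libraries, 1062, 1167 and 1065 CPM in the high-fat libraries and 1348, 817 and 966 CPM in the carnitine libraries. The carnitine libraries thus held both the highest and the lowest sum. Members detected numbered 24 to 30 per control library, 28 to 31 per high-fat library and 23 to 29 per carnitine library.

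**Figure D3:**
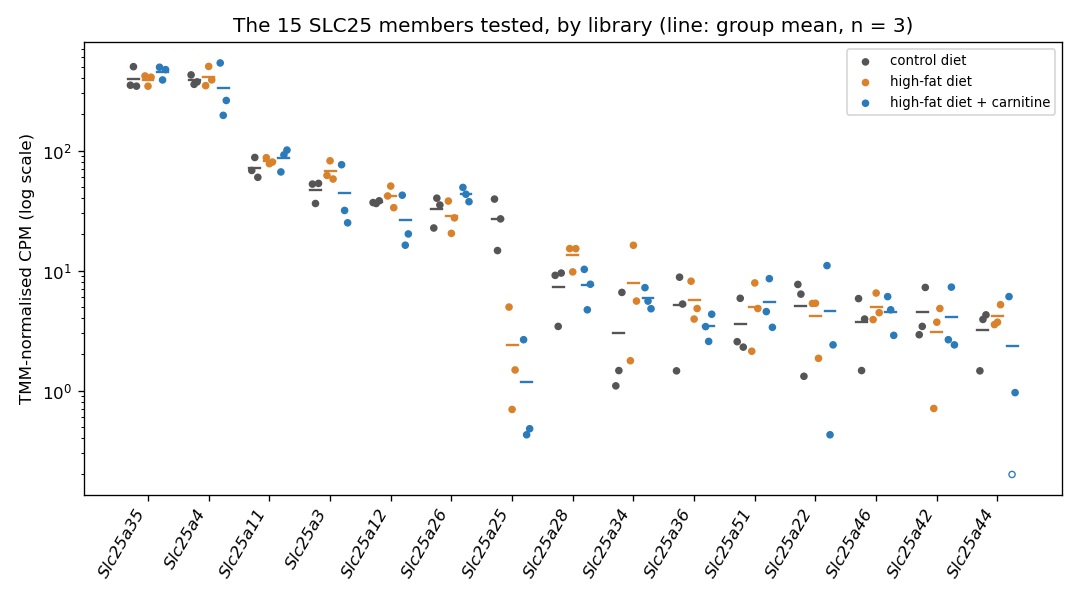
TMM-normalised CPM (y axis, log scale) of the 15 tested members (x axis) in each library, coloured by group, with a line at each group mean (n = 3); the open circle at the foot marks carnitine 2, where Slc25a44 had a count of 0 and is drawn at an arbitrary height. Slc25a35 and Slc25a4 lie highest, at 197 to 537 CPM, and only for Slc25a25 do all control libraries stand above all others.

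Adenine nucleotide and phosphate carriers had 3 of 5 members tested and none called. Slc25a4, the ADP/ATP translocase of heart and skeletal muscle (chromosome 8, 46659834 to 46664321, minus strand, no opposite gene), stood at 427, 356 and 374 CPM in the control libraries. It stood at 348, 503 and 388 CPM in the high-fat libraries and at 537, 197 and 262 CPM in the carnitine libraries. Carnitine 1 was the highest of all 9 libraries and carnitine 2 and 3 the lowest, so the carnitine group had an SD of 181 CPM around 332, against 36.9 around 386 in control. On the log2 scale the change was 0.10 (SE 0.28, adjusted p = 0.996) with the high-fat diet and -0.32 (SE 0.28, adjusted p = 0.692) with carnitine against the high-fat diet. The last was -0.84 without carnitine 1 (adjusted p = 0.0613) and -0.07 without carnitine 2 (0.980).

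Slc25a3, the phosphate carrier that also brings copper to the matrix (chromosome 10, 90952436 to 90959921, minus strand, no opposite gene), held 52.6, 36.2 and 53.3 CPM in the control libraries. The high-fat libraries held 62.1, 82.2 and 57.9 CPM, each above all control libraries. The carnitine libraries held 76.2, 31.7 and 25.0 CPM, with carnitine 1 again far above the other two. The log2 fold change was 0.51 (SE 0.34, adjusted p = 0.890) with the high-fat diet and -0.60 (SE 0.34, adjusted p = 0.484) with carnitine against the high-fat diet. Without carnitine 1 the latter was -1.24 with an adjusted p of 0.0391, the only case in which leaving out 1 library added a member to those called in any comparison.

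Slc25a42, which exchanges coenzyme A with adenine nucleotides, held 2.92, 3.43 and 7.23 CPM in control, 0.709, 3.71 and 4.83 in high-fat and 2.65, 7.28 and 2.4 in carnitine libraries, with all groups overlapping. Its log2 fold changes were -0.55 (SE 0.80, adjusted p = 0.963) with the high-fat diet and 0.41 (SE 0.81, adjusted p = 0.880) with carnitine. Slc25a5, the ADP/ATP translocase of most other tissues, was not tested, with 33 counts and 0.739 FPKM. Slc25a17, a peroxisomal carrier of coenzyme A and flavin nucleotides, held 10 counts.

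Dicarboxylate, aspartate and malate carriers had 2 of 5 members tested and none called. Slc25a12, the aspartate/glutamate carrier of the malate-aspartate shuttle (chromosome 2, 71101407 to 71198093, minus strand), held 36.9, 36.2 and 38.1 CPM in control, 41.8, 50.6 and 33.4 in high-fat and 42.5, 16.3 and 20.2 in carnitine libraries. Carnitine 2 and 3 were below every library of the other groups, and carnitine 1 was not. Its log2 fold change came to 0.18 (SE 0.33, adjusted p = 0.982) with the high-fat diet, -0.67 (SE 0.34, adjusted p = 0.437) with carnitine against the high-fat diet, and -0.49 (SE 0.34, adjusted p = 0.675) with carnitine against control. The -0.67 became -1.20 without carnitine 1 (adjusted p = 0.0631) and -0.44 without carnitine 2 (0.850). The one opposite feature in its span, the pseudogene Gm13641, shared no exon with it and held 2 counts.

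Slc25a11, the oxoglutarate/malate carrier of the same shuttle (chromosome 11, 70535022 to 70538305, minus strand), held 68.3, 87.6 and 59.8 CPM in control, 87.2, 77.7 and 80.2 in high-fat and 66.4, 92.1 and 101 in carnitine libraries. The groups overlapped in every comparison, and the log2 fold changes were 0.19 (SE 0.26, adjusted p = 0.963), 0.08 (SE 0.26, 0.930) and 0.27 (SE 0.26, 0.789) in the order of the comparisons above. It shares 189 exonic bases with Rnf167, a ubiquitin ligase gene, whose row held 286 counts against 1945 on Slc25a11. The untested carriers of this class were Slc25a21 (oxodicarboxylates, 16 counts), Slc25a1 (citrate, 13) and Slc25a10 (dicarboxylates, 3). Of the 13 counts on Slc25a1, no library held more than 6, and 5 libraries held 0.

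The levels of the abundant members were set beside the make-up of each library. Control 2, carnitine 2 and carnitine 3 had the lowest shares of counts on features with no opposite gene, 9.55%, 8.65% and 9.32%, against 11.8% to 14.5% in the other 6 libraries. Slc25a4, Slc25a3 and Slc25a12, whose opposite gene shares no exon, had their lowest levels in carnitine 2 and 3. Slc25a35, which shares 31.3% of its exon sequence with an opposite gene, did not, and neither did Slc25a11 and Slc25a26, which also share exon. Slc25a28, with no opposite gene, was lowest in control 2, then carnitine 2 and 3, at 3.43, 4.71 and 7.69 CPM. Scaled as CPM are, but to the counts on features with no opposite gene alone, Slc25a4 stood at 2895, 3292 and 2911 in control, 3074, 4391 and 2876 in high-fat and 4264, 2042 and 2517 in carnitine libraries. On that scale carnitine 2 and 3 were still the lowest. With TMM factors taken from features with no opposite gene, the change of Slc25a4 with carnitine against the high-fat diet was -0.02 in place of -0.32, that of Slc25a3 -0.32 and that of Slc25a12 -0.38. That scaling moved the median of all features by the same comparison to 0.36. The part of this share in the levels was not tested.

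**Figure D4:**
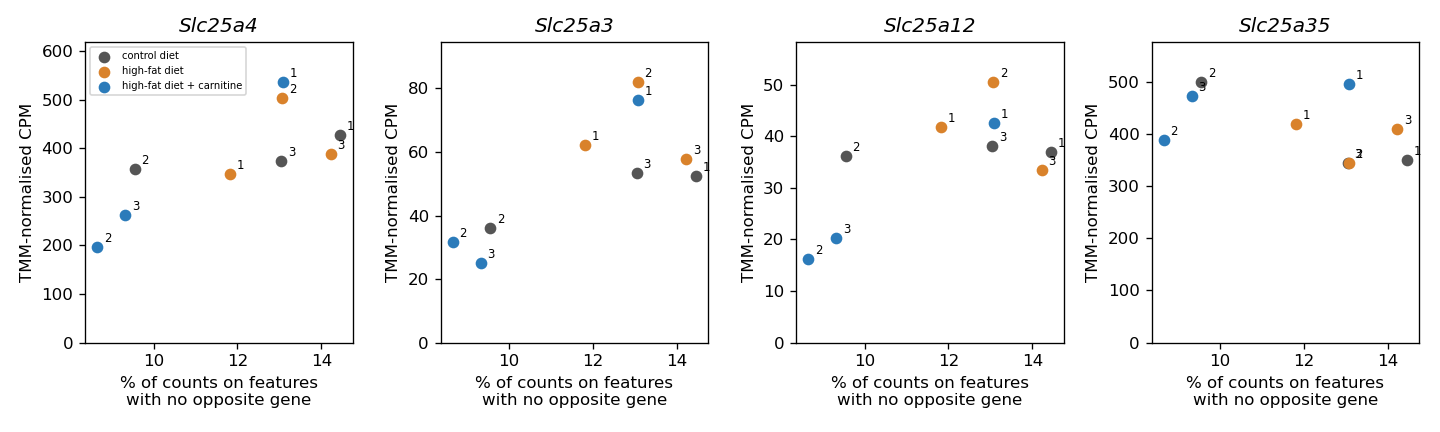
TMM-normalised CPM (y axis) of Slc25a4, Slc25a3, Slc25a12 and Slc25a35 against the percent of a library's counts on features with no opposite gene (x axis), 1 point per library, numbered within its group and coloured by group. Carnitine 2 and 3, at 8.65% and 9.32%, hold the lowest Slc25a4, Slc25a3 and Slc25a12, while Slc25a35 stays between 344 and 500.2 CPM.

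Carriers of unsettled substrate had 3 of 6 members tested and none called. Slc25a35 (chromosome 11, 68858957 to 68865191, plus strand), whose substrate is not settled, held 350.4, 500.2 and 344 CPM in control, 418, 344 and 409 in high-fat and 495, 388 and 473 in carnitine libraries. The groups overlapped, and the log2 fold changes were -0.03 (SE 0.23, adjusted p = 0.999), 0.21 (SE 0.23, 0.757) and 0.18 (SE 0.23, 0.858). Its 1151 exonic bases shared with Rangrf, which encodes a partner of the Ran GTPase, are the longest overlap of any tested member. The Rangrf row held 338 counts against 9986 on Slc25a35.

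Slc25a34 (chromosome 4, 141346135 to 141351132, minus strand, no opposite gene) held 1.10, 1.47 and 6.58 CPM in control, 1.77, 16.2 and 5.57 in high-fat and 7.20, 5.57 and 4.81 in carnitine libraries. The log2 fold change with the high-fat diet, 1.34 (SE 0.73, adjusted p = 0.839), was the highest of the family and turned on single libraries. It was 0.23 without high-fat 2 and 2.61 without control 3 (adjusted p = 0.448). Slc25a46, an outer-membrane member linked to mitochondrial shape, lies opposite B930094E09Rik with 383 shared exonic bases. It ranged from 1.47 to 6.50 CPM, with its largest log2 fold change at 0.38 (SE 0.69, adjusted p = 0.980). Slc25a47, Slc25a45 and Slc25a53 held 4, 2 and 1 counts.

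Cofactor, nucleotide and metal carriers had 4 of 11 members tested and none called. Slc25a28, or mitoferrin-2, an iron carrier (chromosome 19, 43652240 to 43663320, minus strand, no opposite gene), held 9.13, 3.43 and 9.54 CPM in control and 15.2, 9.75 and 15.2 CPM in high-fat libraries. It held 10.2, 4.71 and 7.69 CPM in carnitine libraries. Each high-fat library was above each control library, and the carnitine libraries overlapped both groups. On the log2 scale the change was 0.83 (SE 0.49, adjusted p = 0.869) with the high-fat diet and -0.81 (SE 0.50, adjusted p = 0.514) with carnitine against the high-fat diet. Its relative Slc25a37, or mitoferrin-1, the iron carrier of red cell precursors, was not tested, with 14 counts.

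Slc25a26, the carrier of the methyl donor S-adenosylmethionine (chromosome 6, 94477312 to 94581653, plus strand), held 22.6, 40.1 and 35.2 CPM in control, 37.9, 20.4 and 27.5 in high-fat and 49.3, 43.3 and 37.5 in carnitine libraries. Only high-fat 1, at 37.9 CPM, reached the range of the carnitine libraries. The log2 difference of 0.61 (SE 0.32, adjusted p = 0.461) was the highest of the family for carnitine against the high-fat diet, and it was 0.41 (SE 0.32, adjusted p = 0.719) for carnitine against control. It shares 144 exonic bases with Lrig1, a gene for a membrane protein that restrains growth factor receptors, whose row held 596 counts against 829.

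Slc25a51, the NAD+ carrier, held 2.56, 5.87 and 2.3 CPM in control, 2.13, 7.89 and 4.83 in high-fat and 4.55, 8.57 and 3.37 in carnitine libraries. Its log2 fold change came to 0.51 (SE 0.71, adjusted p = 0.963) with the high-fat diet and 0.65 (SE 0.72, adjusted p = 0.828) with carnitine against control, with overlapping groups. Slc25a36, a pyrimidine nucleotide carrier with Gm16185 on its other strand, held 1.46, 8.81 and 5.26 CPM in control, 8.16, 3.95 and 4.83 in high-fat and 3.41, 2.57 and 4.33 in carnitine libraries. Its log2 fold change came to -0.70 (SE 0.71, adjusted p = 0.740) with carnitine against the high-fat diet. Untested members included Slc25a39 (glutathione, 91 counts), Slc25a33 (pyrimidine nucleotides, 48), Slc25a32 (folate, 41), Slc25a16 (21), Slc25a37 and Slc25a40 (glutathione, 7). Carnitine 1 alone supplied 22 of the 41 counts on Slc25a32.

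Amino acid carriers had 2 of 6 members tested and none called. Slc25a22, a glutamate carrier, held 7.67, 6.36 and 1.32 CPM in control, 5.32, 5.34 and 1.86 in high-fat and 11, 0.428 and 2.4 in carnitine libraries. Slc25a44, a carrier of branched-chain amino acids described in brown fat of mice, held 1.46, 3.92 and 4.27 CPM in control, 3.55, 3.71 and 5.20 in high-fat, and 6.07, 0 and 0.962 in carnitine libraries. The 0 in carnitine 2 allows up to 1.29 CPM. For both genes carnitine 1 was above and carnitine 2 below every high-fat library, and carnitine 3 was below them all for Slc25a44 only. The log2 fold change with carnitine against the high-fat diet was 0.15 (SE 0.83, adjusted p = 0.954) for Slc25a22 and -0.77 (SE 0.96, adjusted p = 0.796) for Slc25a44. The latter was -3.04 without carnitine 1 and -0.23 without carnitine 2. Not tested were Slc25a38 (glycine, 37 counts), Slc25a18 (glutamate, 17), Slc25a15 (ornithine, 14) and Slc25a29 (basic amino acids, 13). Of the members like uncoupling proteins, Slc25a27 held 27 counts and Slc25a14 held 1. No library held more than 10 counts on Slc25a27, and 4 libraries held 0.

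The file holds 13 features opposite 12 of the members, and 10 of them were tested. None was called in any comparison. Gm13068, a long non-coding RNA on chromosome 4 from 149832975 to 149834064 on the plus strand, shares 281 exonic bases with Slc25a33 and held 2935 counts against 48 on that member. Its level was 99.7, 308 and 150.3 CPM in control, 55.3, 65.9 and 90.6 in high-fat and 123, 128 and 129 in carnitine libraries. Every high-fat library was below every control and every carnitine library. The log2 fold change was -1.39 (SE 0.31, adjusted p = 0.0776) with the high-fat diet and 0.84 (SE 0.31, adjusted p = 0.297) with carnitine against the high-fat diet. The first passed the threshold in 3 of 9 other settings: DESeq2 (adjusted p = 0.0116), no filter on low counts (0.000536) and a CPM filter (0.0101). It also passed without control 1 (0.0102), and fell to -0.81 without control 2 (0.749).

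Gm16185, a long non-coding RNA within Slc25a36 on the other strand (chromosome 9, 96967379 to 96970663) with no shared exon, held 14.2, 22.5 and 5.26 CPM in control, 5.67, 6.96 and 10.8 in high-fat and 15.9, 22.7 and 22.1 in carnitine libraries. All carnitine libraries were above all high-fat libraries, at a log2 difference of 1.38 (SE 0.47, adjusted p = 0.266). Gm17168, which shares 168 exonic bases with Slc25a23 and held 531 counts against 67, was also higher without overlap, at 23.6 ± 2.58 against 20.3 ± 0.265 CPM (SD, n = 3; log2 fold change 0.22, SE 0.34, adjusted p = 0.851). With Gm13068 these were 3 of the 10 higher without overlap in that comparison, as were 10.2% of all features, and 63.6% of the features sharing exon with an opposite gene had a positive log2 fold change in it. Atp6v1e1, a proton pump subunit gene opposite Slc25a18, was the 1 that was lower (9.82% of all features were), at 7.48 ± 0.708 against 10.4 ± 1.84 CPM (SD, n = 3).

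B930094E09Rik, opposite Slc25a46, held 2261 counts against 115. Its levels of 82.9 ± 15.9, 108 ± 27.9 and 82.8 ± 34.1 CPM in control, high-fat and carnitine libraries (SD, n = 3) overlapped. Gm11788, opposite Slc25a10 with 228 shared bases, held 98 counts against 3. It was higher without overlap in both groups on the high-fat diet than in control, at 1.73 ± 0.791, 5.57 ± 2.28 and 4.39 ± 0.835 CPM (SD, n = 3), with adjusted p-values of 0.773 and 0.597. Of all features 7.23% and 6.45% were higher without overlap in those comparisons.

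**Figure D5:**
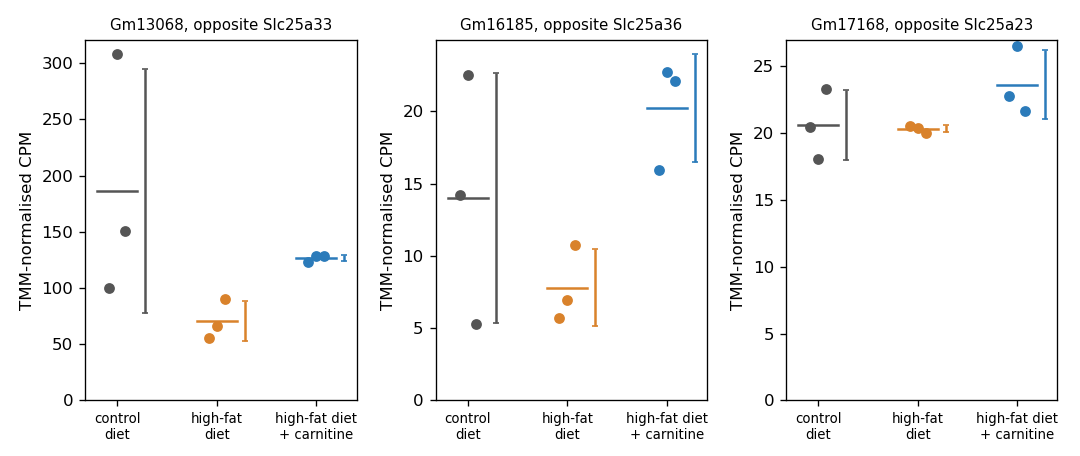
TMM-normalised CPM (y axis) of Gm13068, Gm16185 and Gm17168, the features opposite Slc25a33, Slc25a36 and Slc25a23, in each library by group (x axis), with the group mean as a line and a bar of 1 SD either side (n = 3). For all 3 the carnitine libraries lie above the high-fat libraries, and Gm13068 in the high-fat group, 55.3 to 90.6 CPM, lies below every control library.

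Other genes of mitochondrial transport were taken from 3 lists, and none was called, where 0.0532%, 0.0532% and 0.425% of all features were called in the 3 comparisons. Of 28 genes for other transport across mitochondrial membranes (the calcium uniporter, the pyruvate carrier and others) 16 were tested, with median log2 fold changes of -0.03, -0.13 and -0.26 in the 3 comparisons. Of 17 genes for the import of carrier proteins (the TIM and TOM complexes) 11 were tested, with medians of 0.15, -0.34 and -0.10. Of 16 regulators of mitochondrial gene expression 10 were tested, with medians of -0.10, 0.03 and 0.04. The medians of all features were 0.00, -0.01 and 0.00.

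The smallest adjusted p of each list came with carnitine against the high-fat diet. Ppard, a nuclear receptor that drives fat oxidation genes, stood at 7.79 ± 2.54 CPM in the high-fat and 1.84 ± 0.114 CPM in the carnitine group (SD, n = 3), without overlap (log2 fold change -2.05, SE 0.66, adjusted p = 0.231). Letm1, an inner-membrane ion exchanger gene, stood at 29.6 ± 7.41 and 14.5 ± 6.15 CPM (log2 fold change -1.01, SE 0.39, adjusted p = 0.311). Timm10, which escorts carriers to the inner membrane, stood at 6.38, 6.27 and 5.94 CPM in the high-fat libraries and at 3.03, 0 and 0.481 CPM in the carnitine libraries (log2 fold change -2.3, SE 0.96, adjusted p = 0.339), and the difference was -4.50 without carnitine 1 and -1.77 without carnitine 2. For the high-fat diet against control the smallest p in the transport list was that of Micu3, a regulator of the calcium uniporter, at 26.3 ± 11.6 and 14.6 ± 2.02 CPM (log2 fold change -0.85, SE 0.39, adjusted p = 0.743).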

How the data were processed

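For 9 libraries of muscle mRNA the authors deposited raw counts of each gene as whole numbers, and FPKM values. The ratio of FPKM to count differed between libraries only as the totals do (largest relative deviation 1.13e-14 over 7795 genes). FPKM served only to compare levels between genes. The submitters' processing notes name edgeR, HTSeq 0.13.5, HISAT2 2.2.0, Bowtie2 2.4.2 and Trim Galore 0.6.4 without roles, with the builds GRCm39, GRCh38 and Rnor_6.0. The file's coordinates are those of GRCm39. GENCODE M21, on GRCm38, was used only to tell which genes overlap on opposite strands, and 85 features were not found in it.

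Counts were tested in R 4.3.3 with edgeR 4.0.16 (TMM, default expression filter, robust quasi-likelihood F-test, all 9 libraries in 1 fit of 3 groups), with Benjamini-Hochberg adjustment over all 7523 features and a threshold of 0.05. Standard errors were taken as the size of the fold change (log2) over the square root of F. CPM use TMM-scaled library sizes. With 0 counts up to 3 were taken as possible. The procedure was also run on simulated counts, with an outcome that is not given here. Those counts held no shift between features with and without an opposite gene, unlike these data. Values in every library are given for members called, the 8 most abundant, the 3 highest and 3 lowest fold changes of each comparison, and paralogs of a called member. The promoter windows were searched for 3 motifs. Alternatives were DESeq2 1.42.0, limma-voom (limma 3.58.1), other scalings and filters, a replicate block, the 6 libraries of a comparison alone and leaving out each library. The members, lists and motifs were chosen with earlier results of these data known. Libraries of a group differed by more than sampling noise and were counted separately. The values of 1 untested member are not reported here.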

Additional observations from a re-analysis of the deposited data

How the results depend on the processing

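Slc25a25 kept its direction against control in every alternative run. The number of members called with the high-fat diet against control went from 1 to 0 with library totals alone and was 0 to 1 over the 9 fits that left out a library. For carnitine against the high-fat diet it was 0 in the other settings and 0 to 1 when leaving out a library, and for carnitine against control it went from 1 to 0 with limma-voom and stayed at 1 in the 9 fits. Over all features, calls numbered 4, 4 and 32 in the 3 comparisons and ranged from 0 to 68, 0 to 57 and 10 to 66 over the other settings, and from 0 to 61, 1 to 84 and 5 to 86 when leaving out a library. Both highest counts on leaving out a library in the comparisons with carnitine, and the 61, came without carnitine 1. Replicate numbers gave no sign of pairing, which does not exclude it. Correlations of same-numbered libraries ran from -0.16 to 0.14, and those of differently numbered libraries from -0.15 to 0.19. With the replicate block the calls were 10, 3 and 31, and Slc25a25 stood at -3.73 (adjusted p = 0.00252) and -4.64 (adjusted p = 0.00015) against control. The median of all features was 0.17, -0.20 and -0.03 with library totals alone and -0.12, 0.36 and 0.23 with TMM factors from features with no opposite gene, so changes of members under them are relative to those medians. The summed level differed by 0.06, -0.07 and -0.02 on the log2 scale in the 3 comparisons. Over members with no opposite gene alone these were 0.17, -0.34 and -0.17, and without the 3 most abundant members 0.09, -0.29 and -0.20.

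Signs turned for results that passed no test, and the cause was not tested. Slc25a22 with the high-fat diet was 0.14 with limma-voom. Naif1 with carnitine against control was -0.26 with limma-voom and -0.068 with the replicate block. Leaving out a library gave -0.74 to 0.22 for Slc25a22 and -0.016 to 1.05 for Slc25a51 with the high-fat diet, and -0.30 to 0.84 for Slc25a42 and -2.21 to 0.27 for Slc25a25 with carnitine against the high-fat diet. It gave -0.998 to 0.019 for Slc25a36, -1.08 to 0.85 for Naif1 and -0.83 to 0.023 for Gm13068 with carnitine against control. The 24 untested members held at most 91 counts each in all, too few in too many libraries for the expression filter. DESeq2 gave no adjusted p for Slc25a25 with carnitine against the high-fat diet, and the fit of those 6 libraries alone did not test it.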
